A study of Mus musculus with 12 samples.

Results

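TGF-beta and BMP signalling was examined through 10 genes in libraries labelled as bone endothelial cells (BECs). The genes, chosen by name, were the ligands Tgfb1, Tgfb2, Tgfb3, Bmp4 and Bmp6, the receptors Tgfbr2, Acvrl1 and Eng, and the targets Id1 and Id3. All 10 were found among the 37620 genes of the count table. The cells came from mice labelled c57/Bl6, an inbred laboratory strain that the study's methods give as C57BL/6J. They were purified by endomucin, which bone capillaries carry on their surface. The labels name the tibia as their source, while the study's methods for cell isolation name tibiae and femurs. Female and male mice of 2 weeks (young) and 65 weeks (old) gave 4 groups of 3 libraries, 12 in all, and no allele or treatment was named for any group. Whether each library came from 1 mouse was not stated, so p-values measure the spread between these libraries. Per the study's methods, the libraries kept in each set were those of the best RNA quality.

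Ligands of the TGF-beta superfamily bind complexes of type I and type II serine/threonine kinase receptors, which phosphorylate SMAD proteins that then enter the nucleus. TGF-beta ligands act through Tgfbr2 and mostly signal by Smad2 and Smad3, whereas BMPs mostly signal by Smad1, Smad5 and Smad9. Endothelial cells also carry the type I receptor ALK1, encoded by Acvrl1, and the co-receptor endoglin, encoded by Eng, and mutations of either gene cause hereditary haemorrhagic telangiectasia. Id1 and Id3 encode inhibitors of basic helix-loop-helix factors and are classical targets of BMP and ALK1 signalling.

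Total counts ran from 26044743 to 44569600 per library, and every old library held fewer than any young one. The cell label was compared with 23 endothelial markers, none of which was at 0 in a whole group. Their summed level in CPM, counts scaled to the library total, was 4006 to 7238 in the young and 308.9 to 445 in the old libraries. Emcn, the gene of the protein used for purification, had a mean of 147 ± 32.8 CPM in young and 5.0 ± 2.10 CPM in old females (SD, n = 3 each). The sums of 8 neutrophil markers were 3716 to 5844 CPM in the young and 11190 to 24570 CPM in the old libraries, and those of 8 monocyte and macrophage markers were 4424 to 6277 and 7287 to 10100 CPM. The sums of 10 osteoblast markers were 5661 to 8474 and 153.3 to 242.2 CPM, and those of 8 perivascular and stromal markers were 4887 to 7814 and 899.8 to 1521 CPM. The sums of 8 megakaryocyte markers were 1703 to 2885 and 128.1 to 359.8 CPM, those of 8 B cell markers 249.6 to 344.5 and 420.8 to 1795 CPM, and those of 6 plasma cell markers 295.6 to 428.8 and 958.4 to 1591 CPM. Those of 7 erythroid markers overlapped between the ages, at 25600 to 48120 and 24350 to 37960 CPM. The sums of 6 osteoclast markers were 2119 to 3261 and 800 to 1799 CPM, and those of 8 T and NK cell markers 28.1 to 38.6 and 42.1 to 74.8 CPM. Of 10 chondrocyte markers, Col10a1 was at 0 in all old female and Col9a1 in all old male libraries. Members of a list did not all move alike. On the monocyte and macrophage list, Lyz2 had 62391 to 89951 raw counts in the young and 120056 to 182058 in the old libraries. Mrc1 of that list had 17873 to 42083 and 11706 to 16669, not scaled to the totals, which were smaller in the old. On the plasma cell list, Jchain had 143 to 342 and 18770 to 36225 raw counts, and Sdc1 2930 to 5516 and 781 to 1435. Erythroid sums were above the endothelial sums in every library, and neutrophil and monocyte and macrophage sums were so in every old library. Transcripts of other cell types were thus abundant beside those of the cell label. The lists differ in size, so their sums are no measure of cell numbers. Marker sums of several cell types moved with age, and their part in the results was not tested. In bulk libraries, fewer cells of a type and less RNA per cell cannot be told apart. All libraries matched their sex label. Old male replicate 3 held 117 counts of Xist, the RNA of the inactive X chromosome, and young female replicate 3 had the lowest endothelial sum of its age, so values without them are given where they bear on a result.

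The upstream sequences of Eng, Id3 and Tgfbr2 are shown because Eng and Id3 were the receptor and target among the 10 with the largest falls with age, while Tgfbr2 did not pass that test. They are the 250 bases before the RefSeq start of each gene on mouse build GRCm38.p6, read 5′ to 3′ on the strand of the gene. Eng was at chr2:32646345-32646594 on the plus strand, Id3 at chr4:136143572-136143821 on the plus strand and Tgfbr2 at chr9:116175364-116175613 on the minus strand. Capitals mark a SMAD box, with the letters CAGAC or, read from the other strand, GTCTG. Capitals also mark an ETS-type motif, with the letters AGGAAG or, read from the other strand, CTTCCT.
Eng: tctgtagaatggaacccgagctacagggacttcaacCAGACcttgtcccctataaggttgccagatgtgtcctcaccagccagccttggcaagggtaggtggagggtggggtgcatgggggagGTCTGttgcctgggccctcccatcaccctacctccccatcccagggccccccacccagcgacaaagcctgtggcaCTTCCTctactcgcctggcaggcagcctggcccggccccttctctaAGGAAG
Id3: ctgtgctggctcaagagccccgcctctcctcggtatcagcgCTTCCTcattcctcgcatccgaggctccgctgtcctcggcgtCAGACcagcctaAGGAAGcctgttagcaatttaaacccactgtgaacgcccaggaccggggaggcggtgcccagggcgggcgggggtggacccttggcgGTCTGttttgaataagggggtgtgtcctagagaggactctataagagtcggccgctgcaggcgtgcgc
Tgfbr2: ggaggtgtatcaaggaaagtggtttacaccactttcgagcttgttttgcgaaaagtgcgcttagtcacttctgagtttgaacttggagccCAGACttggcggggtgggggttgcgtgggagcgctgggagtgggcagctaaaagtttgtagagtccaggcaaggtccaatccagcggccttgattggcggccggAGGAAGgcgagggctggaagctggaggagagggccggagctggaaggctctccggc
Eng and Id3 each held 2 matches of each motif and Tgfbr2 held 1 of each. In the windows not printed, Bmp4, with the largest fall in females, held 0 of each. Tgfb1 held 0 SMAD boxes and 1 ETS-type motif, Tgfb2 held 2 and 0, and Bmp6 held 1 and 0. At least 1 SMAD box was found in 42.1% of 27025 upstream windows of this length. At least 1 ETS-type motif was found in 29.2%, so both are common. The GC-rich SMAD motif GGCGCC was in 9.54% of windows and in none of the 7 members with an entry, which were Tgfb1, Tgfb2, Tgfbr2, Eng, Bmp4, Bmp6 and Id3. No overlap of the motifs occurs in the windows printed.

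Age was compared within each sex, old over young. In both sexes 9 of the 10 genes were lower in the old libraries, 0 were higher, and Tgfbr2 did not pass the test (quasi-likelihood test of edgeR, adjusted over all genes by Benjamini-Hochberg, threshold 0.05). Of all genes tested, 59.7% passed in females, 29.5% being lower and 30.2% higher, and 55.5% passed in males, 28.5% being lower and 27% higher. The median log2 fold change of the 10 was -2.47 in females and -2.94 in males, beside 0.0056 and 0.0080 for all genes tested. All 23 endothelial markers were lower in both sexes, with medians of -4.49 and -4.99. Libraries of the ages did not overlap for the 9 lower genes in either sex, as for 69.2% of all genes in females and 65.4% in males. Without young female replicate 3 or old male replicate 3, the count of lower genes in that sex was again 9.

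**Figure D1:**
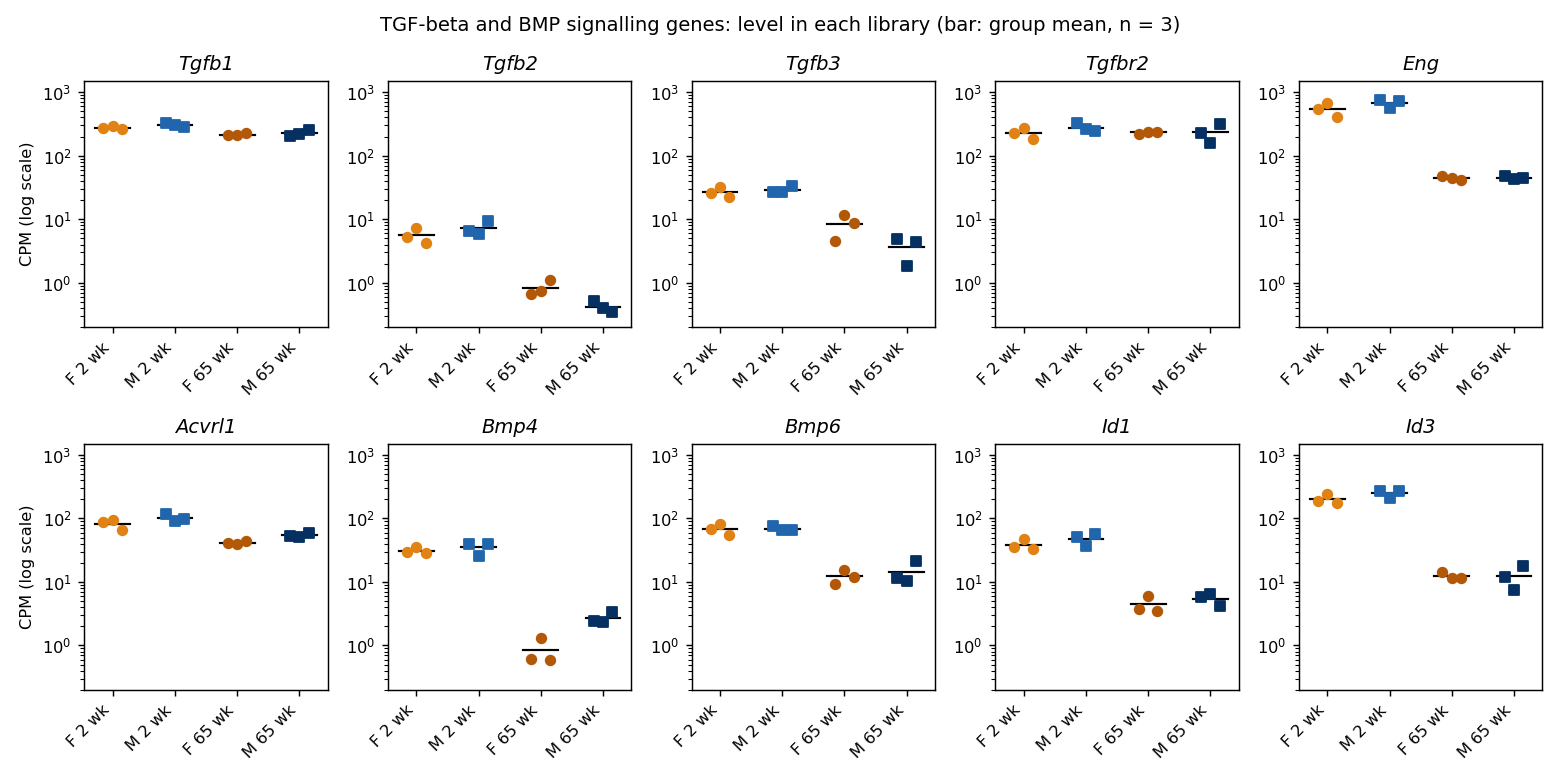
Level of each of the 10 genes in every library, in CPM on a log axis, by sex (F, female; M, male) and age (wk, weeks), with a bar at the group mean. Tgfb1 and Tgfbr2 lie at a similar height in all 4 groups, while Eng drops from 404 CPM or more at 2 weeks to 48.0 CPM or less at 65 weeks.

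Tgfb1 encodes TGF-beta 1, the TGF-beta ligand with the highest level here (ENSMUSG00000002603, GRCm39 chromosome 7, 25386390 to 25404506, plus strand). Young females held 273, 289.8 and 261 CPM and young males 325, 302 and 286 CPM. Old females held 209, 209 and 225 CPM and old males 208, 218 and 249.9 CPM. Every old library was lower than every young library, but by little. Tgfb1 fell by 0.22 in log2 units in females (SE 0.0728, adjusted p = 0.0295) and by 0.32 in males (SE 0.0995, adjusted p = 0.0260) in edgeR. This call was lost when 1 library was left out. The adjusted p in edgeR was 0.0618, 0.0755 and 0.101 in females without young replicate 1, old replicate 1 and old replicate 2. It was 0.105, 0.0688, 0.0804 and 0.0529 in males without young replicate 1, young replicate 2, old replicate 1 and old replicate 2. With the replicate number as a block it was 0.0861 in females and 0.0594 in males.

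Tgfb2 encodes TGF-beta 2, a ligand needed in heart and skeletal development (ENSMUSG00000039239, GRCm39 chromosome 1, 186354985 to 186438294, minus strand). Young females held 5.23, 7.25 and 4.26 CPM and young males 6.57, 5.79 and 9.25 CPM. Old females held 0.654, 0.733 and 1.09 CPM and old males 0.512, 0.408 and 0.346 CPM, from raw counts of 19, 25 and 32 and of 14, 11 and 9. All old libraries lay below all young ones, and the old males below the old females. Tgfb2 fell by 2.61 in log2 units in females (SE 0.301, adjusted p = 0.000164) and by 3.96 in males (SE 0.308, adjusted p = 3.06e-05) in edgeR.

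Tgfb3 encodes TGF-beta 3, known for its part in palate fusion and chondrogenesis (ENSMUSG00000021253, GRCm39 chromosome 12, 86102756 to 86126301, minus strand). Young females held 25.6, 32.2 and 22.0 CPM and young males 26.9, 26.5 and 33.4 CPM. Old females held 4.51, 11.8 and 8.70 CPM and old males 4.83, 1.82 and 4.45 CPM. The ages did not overlap, and the old libraries were uneven, with a coefficient of variation of 44.0% in females and 44.4% in males against 19.4% and 13.4% in the young. Tgfb3 fell by 1.52 in log2 units in females (SE 0.308, adjusted p = 0.00324) and by 2.85 in males (SE 0.329, adjusted p = 0.000242) in edgeR.

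The make-up of the ligand transcripts differed between the ages, as Tgfb1 changed least of the 3. Per kilobase of exon, Tgfb1 took 88.6% to 91.3% of the summed level of the 3 ligands in young females and 87.7% to 91.2% in young males. In the old libraries it took 94.5% to 97.7% in females and 97.6% to 99.1% in males, with no overlap of the ages. Tgfb3 took 7.356% to 9.98% in the young, 2.06% to 5.21% in old females and 0.803% to 2.21% in old males. Tgfb2 never took more than 2.30%, and at most 0.195% in old males. With the longest transcript as length, the mean share of Tgfb1 was 93.5% in young and 97.5% in old females, and again the ages did not overlap.

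Bmp4 encodes a BMP ligand of stromal and endothelial cells (ENSMUSG00000021835, GRCm39 chromosome 14, 46620250 to 46636745, minus strand). Young females held 29.2, 35.1 and 28.4 CPM and young males 38.9, 26.04 and 39.7 CPM. Old females held 0.620, 1.32 and 0.580 CPM and old males 2.45, 2.37 and 3.42 CPM, from raw counts of 18, 45 and 17 and of 67, 64 and 89. No old library came near the young range, and the old males lay above the old females. Bmp4 fell by 5.03 in log2 units in females (SE 0.272, adjusted p = 4.31e-06) and by 3.56 in males (SE 0.222, adjusted p = 1.09e-05) in edgeR. The fall in females was the largest of any of the 10 genes in either sex.

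Bmp6 encodes a ligand by which liver endothelium controls hepcidin (ENSMUSG00000039004, GRCm39 chromosome 13, 38529065 to 38684280, plus strand). Young females held 67.0, 82.6 and 54.8 CPM and young males 74.8, 66.4 and 65.3 CPM. Old females held 9.40, 15.3 and 12.04 CPM and old males 11.7, 10.4 and 21.3 CPM. The highest old value, in male replicate 3, was still below every young library. Bmp6 fell by 2.33 in log2 units in females (SE 0.2003, adjusted p = 3.39e-05) and by 2.15 in males (SE 0.240, adjusted p = 0.000201) in edgeR.

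Tgfbr2 encodes the type II receptor of the TGF-beta ligands (ENSMUSG00000032440, GRCm39 chromosome 9, 115913361 to 116004800, minus strand). Young females held 229.5, 272 and 183 CPM and young males 326, 259 and 246 CPM. Old females held 224, 237 and 240.4 CPM and old males 224, 157 and 321 CPM. The ages overlapped in both sexes, and old males held both the lowest value of all and one of the highest. The log2 fold change in edgeR was 0.17 in females (SE 0.126, adjusted p = 0.266) and -0.14 in males (SE 0.233, adjusted p = 0.640). Its sign turned when 1 library was left out, to -0.028 in females without young replicate 3 and to 0.07 in males without old replicate 2.

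Eng encodes endoglin, a co-receptor of TGF-beta and BMP ligands that is abundant on endothelium (ENSMUSG00000026814, GRCm39 chromosome 2, 32535543 to 32574661, plus strand). Young females held 549, 679 and 404 CPM and young males 747, 574 and 719 CPM. Old females held 48.0, 45.3 and 42.1 CPM and old males 47.9, 43.4 and 44.4 CPM. The lowest young library stood far above the highest old one, and the 6 old libraries were close to each other. Eng fell by 3.45 in log2 units in females (SE 0.175, adjusted p = 3.50e-06) and by 3.79 in males (SE 0.145, adjusted p = 1.43e-06) in edgeR.

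Acvrl1 encodes ALK1, the endothelial type I receptor for BMP9 and BMP10 (ENSMUSG00000000530, GRCm39 chromosome 15, 101025996 to 101043217, plus strand). Young females held 86.8, 94.2 and 66.1 CPM and young males 115, 92.5 and 99.5 CPM. Old females held 40.5, 39.9 and 43.4 CPM and old males 53.4, 51.0 and 57.9 CPM. The ages did not overlap, and the old males lay above the old females. Acvrl1 fell by 0.86 in log2 units in females (SE 0.120, adjusted p = 0.000463) and by 0.81 in males (SE 0.108, adjusted p = 0.000557) in edgeR.

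Id1 encodes an inhibitor of differentiation induced by BMPs (ENSMUSG00000042745, GRCm39 chromosome 2, 152566218 to 152579544, plus strand). Young females held 34.9, 47.7 and 33.2 CPM and young males 50.9, 36.2 and 57.4 CPM. Old females held 3.75, 6.10 and 3.45 CPM and old males 5.75, 6.41 and 4.18 CPM. Every old library was below every young one. Id1 fell by 2.97 in log2 units in females (SE 0.238, adjusted p = 2.45e-05) and by 3.02 in males (SE 0.240, adjusted p = 3.38e-05) in edgeR.

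Id3 encodes a second protein of the same family (ENSMUSG00000007872, GRCm39 chromosome 4, 135870808 to 135873066, plus strand). Young females held 189, 241 and 175 CPM and young males 272, 208 and 266 CPM. Old females held 14.5, 11.4 and 11.7 CPM and old males 11.9, 7.37 and 17.7 CPM. Again the ages were far apart. Id3 fell by 3.88 in log2 units in females (SE 0.147, adjusted p = 1.74e-06) and by 4.23 in males (SE 0.296, adjusted p = 1.88e-05) in edgeR. Per kilobase of exon, Id1 made up 15.7% to 16.6% of the sum of Id1 and Id3 in young females and 14.96% to 17.9% in young males. Its share was 20.8% to 35.1% in old females and 19.3% to 46.7% in old males, above every young library and less even.

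**Figure D2:**
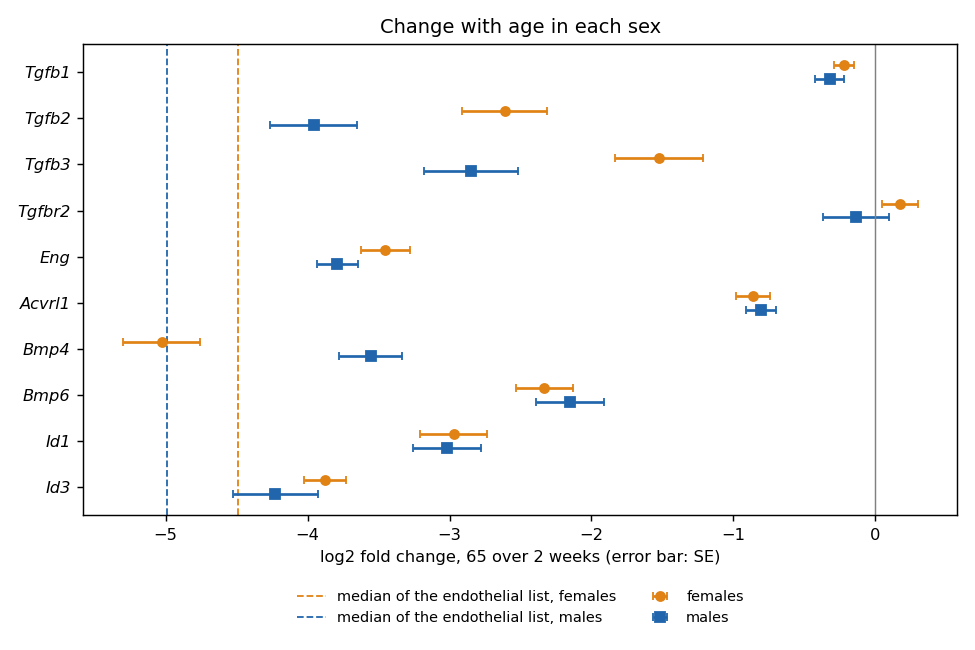
Log2 fold change of each gene at 65 over 2 weeks from edgeR, with its SE, in females (circles) and males (squares). Dashed lines mark the medians of the 23 endothelial markers, -4.49 in females and -4.99 in males, and Bmp4 in females, at -5.03, is the sole point beyond the line of its sex.

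Levels were compared between genes per kilobase of exon, as the mean of each group. In young females the order was Id3 at 113 CPM per kb, Eng at 69.8, Tgfb1 at 54.0, Tgfbr2 at 25.96, Id1 at 21.8, Bmp6 at 17.4, Acvrl1 at 10.9, Bmp4 at 5.89, Tgfb3 at 5.10 and Tgfb2 at 0.892. The library ranges overlapped between Eng and Tgfb1, Tgfbr2 and Id1, Id1 and Bmp6, and Bmp4 and Tgfb3. Young males had the same order of means. With the longest transcript as length, Tgfb1 stood above Eng in the young, at 107 against 87.4 CPM per kb in females. In old females the order was Tgfb1 at 42.2 CPM per kb, Tgfbr2 at 26.6, Id3 at 6.98, Eng at 5.79, Acvrl1 at 5.46, Bmp6 at 3.12, Id1 at 2.498, Tgfb3 at 1.60, Bmp4 at 0.160 and Tgfb2 at 0.132. There the ranges of neighbours overlapped from Eng down to Tgfb2, except between Acvrl1 and Bmp6 and between Tgfb3 and Bmp4. By means per kilobase of exon, Tgfb1 and Tgfbr2 thus led in the old, where Id3 and Eng had led in the young. With the longest transcript as length, Id3 and Tgfb1 led in the young. In old males Acvrl1, at 7.16 CPM per kb, came after Tgfb1 and Tgfbr2, within the range of Id3.

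The genes were next set against the summed counts of the 23 endothelial markers in the same library, a list that holds none of the 10. Eng had 10.1 ± 0.132 counts per 100 endothelial counts in young females and 10.3 ± 0.363 in young males, and 11.8 ± 1.62 in old females and 14.0 ± 1.57 in old males (SD, n = 3 each). Its ratio was 1.25 times as high in the old, with overlap of the ages. The markers of the sum did not fall alike, so the ratio depends on which are listed. Their log2 fold changes with age ran from -6.145 to -1.4 in females and from -6.727 to -1.602 in males. In young females Cdh5 had 16501 to 26211 raw counts and Pecam1 9624 to 14399. In old females they had 259 to 442 and 2186 to 3625. Since the endothelial sum itself was lower in every old library, a gene with an unchanged level in CPM rises on this scale, and the ratios are given as a description with no test of age.

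Over 13300 genes with a mean of at least 1 CPM, the median log2 change of this ratio was 3.943, and the mean ratio was higher in the old libraries for 96.3% of them. It was higher for 8 of the 10 members, and the changes of all 10 lay below that median. Tgfbr2 was nearest to it, with a mean of 4.30 counts per 100 endothelial counts in young and 61.2 in old females, of 4.20 and 71.0 in males, and a log2 change of 3.938 over both sexes. The log2 change was 3.66 for Tgfb1 and 3.11 for Acvrl1, followed by 1.66 for Bmp6, 1.64 for Tgfb3, 0.92 for Id1, 0.68 for Tgfb2 and 0.33 for Eng. Every old library was above every young one for 6 of the 10 members, beside 92.3% of all genes.

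Id3 and Bmp4 had a lower mean ratio in the old libraries. Id3 had 3.83 ± 0.472 counts per 100 endothelial counts in young females, 3.76 ± 0.171 in young males, 3.30 ± 0.742 in old females and 3.73 ± 1.28 in old males (SD, n = 3 each). Its log2 change was -0.15, and that of Bmp4 was -0.40. In females its ratio was 0.519 to 0.709 in the young and 0.164 to 0.297 in the old, and in males 0.449 to 0.587 and 0.767 to 0.953.

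**Figure D3:**
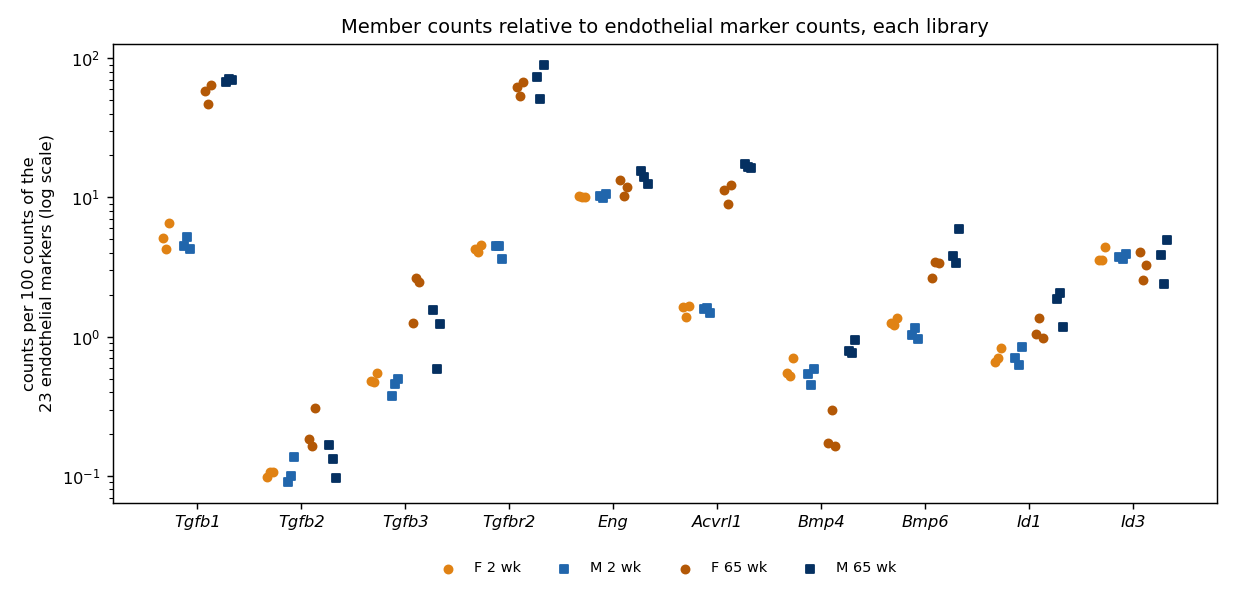
Counts of each gene per 100 counts of the 23 endothelial markers in every library, on a log axis, by sex (F, female; M, male) and age (wk, weeks). Tgfb1 and Tgfbr2 lie between 3.64 and 6.52 at 2 weeks and between 47.0 and 89.5 at 65 weeks, while Bmp4 is lower in old than young females and higher in old than young males.

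Among the 3 libraries of young females all 10 genes had the same order, with replicate 2 highest and replicate 3 lowest. The endothelial sum had this order too and was 1.69 times as high in replicate 2 as in replicate 3. The ratio of highest to lowest ran from 1.11 for Tgfb1 to 1.70 for Tgfb2. Of 13300 genes with a mean of at least 1 CPM, 38.1% had this order, as had 5 of the 12 marker lists. In young males, old females and old males, 3, 2 and 1 of the 10 genes followed the order of the endothelial sum, beside 20.9%, 15% and 22.4% of genes. In the old that order was near a tie. The sums of old male replicates 1 and 2 lay at -0.0757 and -0.0753 in log2 units from their mean. Those of old female replicates 1 and 3 lay at -0.108 and -0.123.

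**Figure D4:**
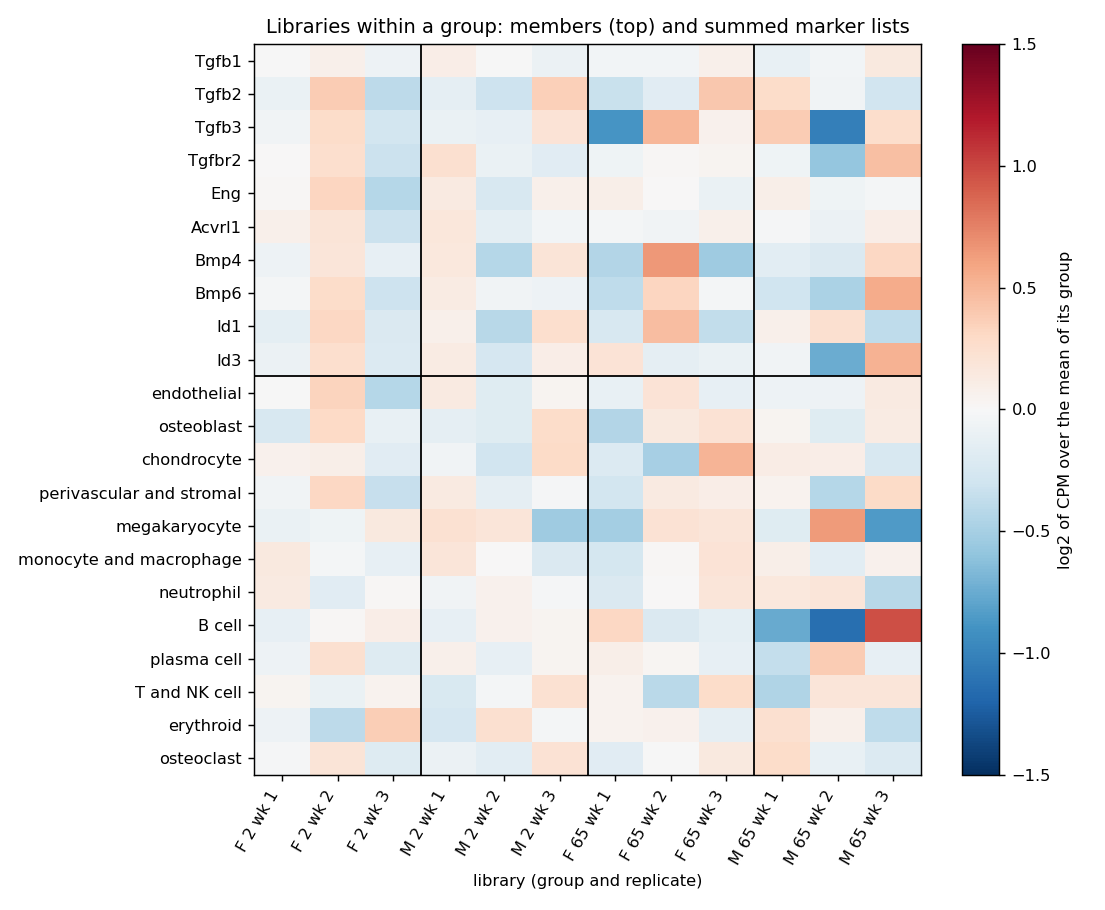
Log2 of the level in each library over the mean of its group, for the 10 genes above the line and the summed CPM of 12 marker lists below it (F, female; M, male; wk, weeks). In 2-week females all 10 genes are above their mean in replicate 2 and below it in replicate 3, as is the endothelial list, whereas erythroid markers are highest in replicate 3 and lowest in replicate 2.

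The sexes were compared within each age, male over female. In the young, 0 of the 10 genes passed with edgeR, 0 had an unadjusted p under 0.05, beside 17.8% of all genes tested, and 0 passed with DESeq2. Of all genes tested, 0.0332% passed with edgeR, 0.0265% being higher and 0.00663% lower in males. The 10 log2 fold changes were all above 0, with a median of 0.28 against 0.011 for all genes tested, and so were those of the 23 endothelial markers, with a median of 0.31. The most extreme was Tgfb2 at 0.35 (edgeR, SE 0.222, adjusted p = 0.399), and Bmp6 was at 0.0024. The sexes overlapped for all 10 genes, while 21.7% of all genes had no overlap. Without young female replicate 3, Tgfb3 was at -0.0050 and Bmp6 at -0.13.

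In the old, 0 of the 10 genes passed with edgeR, beside 0.042% of all genes tested, all of them higher in males and 0% lower. At an unadjusted p under 0.05 there were 3, which were Bmp4, Acvrl1 and Tgfb3, beside 10.4% of all genes tested. Bmp4 was at 1.67 (edgeR, SE 0.425, adjusted p = 0.220), with every male library above every female one. It passed with DESeq2 (adjusted p = 0.0217) and with edgeR on all 12 libraries in 1 model (adjusted p = 0.0295), and over all alternatives its adjusted p ran from 0.0217 to 0.658. Of all genes, DESeq2 called 357 and the model of all 12 libraries 254, against 6 in the main edgeR test. Acvrl1 was at 0.38 (edgeR, SE 0.0959, adjusted p = 0.222), also without overlap. Tgfb3 was at -1.19 (edgeR, SE 0.442, adjusted p = 0.401), with overlap. Tgfb2, at -0.97 (edgeR, SE 0.503, adjusted p = 0.582), had no overlap. The sexes were thus apart for 3 of the 10 genes, beside 15.5% of all genes tested. Without old male replicate 3, Bmp4 was at 1.53 (edgeR, adjusted p = 0.121) and Bmp6 went from 0.21 to -0.13.

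Whether the change with age differed between the sexes was tested as an interaction over the same 12 libraries. With edgeR 0 of the 10 genes passed, beside 0.00635% of all genes tested, and 3 had an unadjusted p under 0.05, beside 11.9% of them. Bmp4 had a difference, males minus females, of 1.48 in log2 units that did not pass (edgeR, SE 0.374, adjusted p = 0.163) but did with DESeq2 (1.502, adjusted p = 0.00792). DESeq2 called 362 of all genes there, against 1 with edgeR. Tgfb2 and Tgfb3 had differences of -1.34 and -1.32, which did not pass (edgeR, SE 0.443 and 0.489, adjusted p = 0.266 and 0.316).

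The rest of the pathway was described by a list of 70 other genes in 6 roles, of which 59 were tested in each sex. In old females 38 were lower and 10 higher, beside 29.5% and 30.2% of all genes tested, with a median log2 fold change of -1.17 against 0.0056. In old males 41 were lower and 6 higher, beside 28.5% and 27%, with a median of -1.62 against 0.0080. In both sexes alike 37 were lower and 6 higher, and 0 went opposite ways. These counts are a description, as the matching shares of all genes are not given here.

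Of 11 ligands tested, 7 were lower and 2 higher in old females, and 8 were lower and 2 higher in old males. The higher ones were Inhba, a subunit of activin A, and Gdf15, a stress-induced circulating factor. Inhba had a mean of 0.789 ± 0.0862 CPM in young and 4.86 ± 0.698 CPM in old females, and of 0.734 ± 0.0137 and 7.40 ± 1.66 CPM in males (SD, n = 3 each). Inhba rose by 2.75 and 3.45 in log2 units (edgeR in females and males, SE 0.241 and 0.259, adjusted p = 3.79e-05 and 2.58e-05). Gdf15 rose by 2.56 and 3.33 in log2 units (edgeR in females and males, SE 0.340 and 0.285, adjusted p = 0.000351 and 5.03e-05). Gdf5, a growth factor of joints, had 40 to 82 counts in each young and 0 to 4 in each old library, and Bmp3, a BMP of bone, had 149 to 216 and 0 to 12.

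Of 8 receptors tested, 4 were lower in each sex, and 2 were higher in old females and 1 in old males. Tgfbr3, the co-receptor betaglycan, fell by 1.87 and 2.72 in log2 units (edgeR in females and males, SE 0.225 and 0.105, adjusted p = 0.000207 and 1.48e-06). Acvr1, the BMP type I receptor ALK2, fell by 1.98 and 2.34 in log2 units (edgeR in females and males, SE 0.252 and 0.177, adjusted p = 0.000283 and 2.65e-05). Acvr1b, the activin type I receptor ALK4, rose by 0.75 and 0.50 in log2 units (edgeR in females and males, SE 0.0942 and 0.148, adjusted p = 0.000265 and 0.0225). The other 2 lower ones were Acvr2a and Bmpr2, both type II receptors, and the second higher one in females was Tgfbr1, the partner of Tgfbr2, at 0.75 in females and 0.33 in males, where it did not pass (edgeR, adjusted p = 0.000337 and 0.0936). These 3 were named after their values were seen.

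Of 8 SMAD genes, 5 were lower and 1 higher in old females, and 4 were lower and 0 higher in old males. Smad1, Smad5 and Smad9, which carry BMP signals, were lower in both sexes. Smad9 had 55 to 73 counts in each young library, 0 or 1 in each old female library and 3 to 10 in each old male library. The inhibitory Smad6, itself a BMP target, fell by 3.08 and 3.20 in log2 units (edgeR in females and males, SE 0.298 and 0.206, adjusted p = 6.26e-05 and 1.24e-05). Smad1 fell by 0.96 in females and 1.16 in males, and Smad5 by 1.17 and 1.55. Smad2 and Smad3, which carry TGF-beta signals, were at 0.19 and -0.0040 in females and at 0.20 and -0.26 in males, and of these Smad2 in females passed (edgeR, adjusted p = 0.0474), with overlap of the ages. The inhibitory Smad7 fell in females by 0.46 (edgeR, adjusted p = 0.0408) and did not pass in males (adjusted p = 0.338). Smad1, Smad2, Smad3, Smad5 and Smad7 were named after their values were seen.

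Of 9 extracellular inhibitors tested, 8 were lower and 1 higher in each sex. Fst, which encodes the activin-binding follistatin, fell by 3.29 and 3.12 in log2 units (edgeR in females and males, SE 0.176 and 0.180, adjusted p = 4.14e-06 and 7.87e-06). The higher one in both sexes was Fstl3, another activin-binding protein, named after its values were seen, which rose by 1.34 and 1.197 in log2 units (edgeR in females and males, SE 0.161 and 0.360, adjusted p = 0.000206 and 0.0234). The ages of Fstl3 overlapped in males, where old replicate 2 held 3.48 CPM and young replicate 2 held 3.52 CPM. Of 9 genes of latency and activation tested, 6 were lower in old females and 8 in old males, and 0 were higher. Lrrc32, which encodes GARP, a surface anchor of latent TGF-beta, fell by 3.85 and 4.81 in log2 units (edgeR in females and males, SE 0.157 and 0.410, adjusted p = 1.85e-06 and 4.87e-05). Ltbp4, a latent TGF-beta binding protein, fell by 3.47 and 4.39 in log2 units (edgeR in females and males, SE 0.203 and 0.179, adjusted p = 5.85e-06 and 1.68e-06).

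Of 14 target or feedback genes, 8 were lower and 4 higher in old females, and 9 were lower and 2 higher in old males. Ccn2, the matricellular factor CTGF, had a mean of 153 ± 37.3 CPM in young and 2.04 ± 0.860 CPM in old females, and of 189.8 ± 17.0 and 7.57 ± 1.37 CPM in males (SD, n = 3 each). Ccn2 fell by 6.07 and 4.54 in log2 units (edgeR in females and males, SE 0.298 and 0.148, adjusted p = 3.19e-06 and 1.04e-06). Bambi, a decoy receptor, fell by 3.30 and 4.13 in log2 units (edgeR in females and males, SE 0.218 and 0.275, adjusted p = 1.03e-05 and 1.48e-05). Tgfbi, a TGF-beta-induced matrix protein, rose by 0.40 and 0.59 in log2 units (edgeR in females and males, SE 0.103 and 0.124, adjusted p = 0.00960 and 0.00498). Among the other higher ones, named after their values were seen, were the SMAD corepressor Tgif1 in both sexes and its fellow corepressor Skil in females. No gene of the list passed between the sexes or in the interaction with edgeR. An unadjusted p under 0.05 was found for 9 of 60 genes between the young sexes, 11 of 52 between the old sexes and 16 of 60 in the interaction, beside 17.8%, 10.4% and 11.9% of all genes tested.

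**Figure D5:**
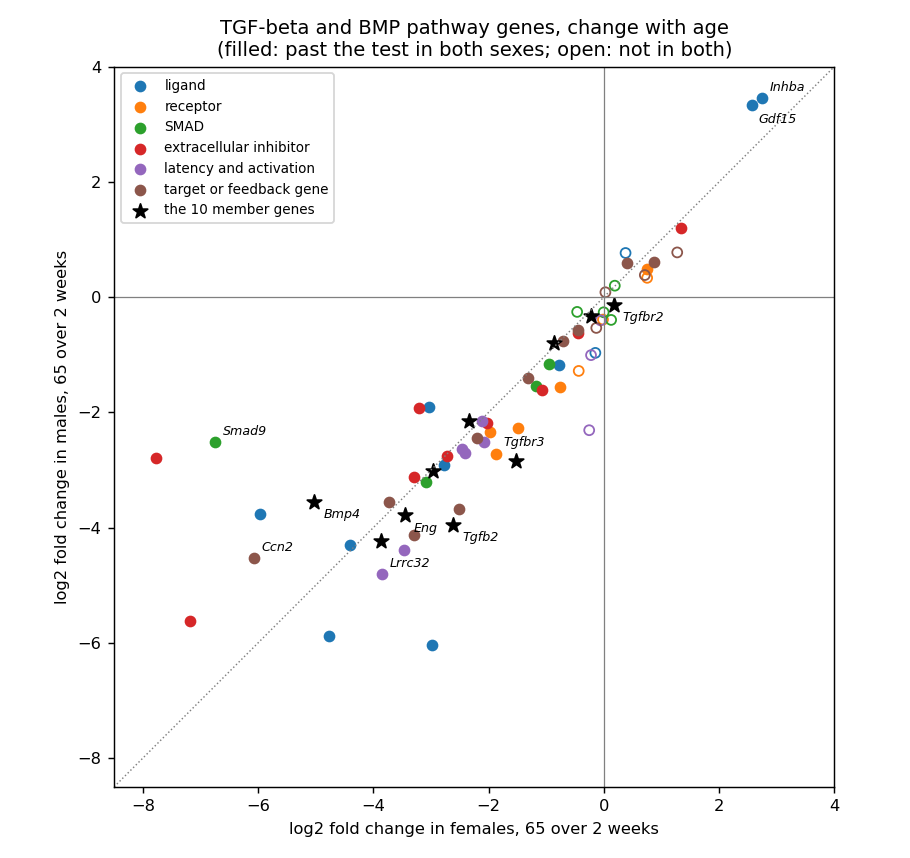
Log2 fold change at 65 over 2 weeks in males against females, for the pathway genes by role (circles, filled where past the test in both sexes) and the 10 members (stars), with a dotted line where both sexes change alike. Most genes lie at the lower left, and Inhba and Gdf15, at 2.75 and 2.56 in females, lie highest at the upper right.

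Genes of like pattern were taken as the 2 protein-coding genes with the highest Pearson r of log2(CPM + 0.5) over the 12 libraries, among 12530 genes with a mean of at least 1 CPM. These r values are a description, since the libraries fall into 2 ages and share their marker differences. Eng was most like Lrrc55 and Bok (r = 0.999 each), and Id3 most like Vash1 and Thsd1 (r = 0.998 each). Bmp4 was most like Ccn2 (r = 0.998) and Gas1 (r = 0.997), and Bmp6 most like Iffo2 (r = 0.997) and the BMP ligand Bmp5 (r = 0.995). Id1 was most like Stk25 and Ddah1 (r = 0.996 each), Tgfb2 most like Nsg1 (r = 0.996) and Asb4 (r = 0.994), and Acvrl1 most like Rhob and Nipsnap2 (r = 0.991 each). Tgfb1 was most like Aco1 (r = 0.990) and Agpat3 (r = 0.988), and Tgfb3 most like Rcor2 (r = 0.984) and Htra3 (r = 0.982). Tgfbr2 was most like Zbtb4 (r = 0.965) and Rap1gds1 (r = 0.963). An r of 0.95 or more was reached by 2 genes with Tgfbr2, 103 with Tgfb3, 1973 with Id3 and 2048 with Eng.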

How the data were processed

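The deposited file held raw counts per gene, made by the authors and not normalised. The labels' processing notes name mm9, TopHat2 and HTSeq, whereas the study's methods name GRCm39, STAR and featureCounts, and this was not resolved. Whether counting used strand is not given in the sources used here. The kit was for total RNA, while the labels name polyadenylated RNA. Ensembl IDs were matched to GENCODE M39 (GRCm39), which held 31052 of 37620 IDs with 99.287% of the counts.

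CPM were counts scaled to the library total, 26044743 at the least. The test was the quasi-likelihood F test of edgeR 4.0.16 (R 4.3.3, limma 3.58.1) after filterByExpr with a minimum count of 10 and TMM, with p-values adjusted by Benjamini-Hochberg over all genes and a threshold of 0.05. Each comparison used its 6 libraries, and the interaction all 12. The SE was derived from F. The scripts were tested on simulated data. Ratios used a pseudocount of 0.5. The permutation test of age planned for these ratios is not reported, since their denominator fell with age, and their values over all genes were added after the data were examined. No library was dropped. The alternatives were DESeq2 1.42.0, other scalings and filters, thinning to the smallest library, a single model of all 12 libraries, the replicate number as a block, and each library left out in turn.

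The members and lists were chosen with earlier results of these data known. The rule for pathway genes named, per role, the 2 with the largest mean rise and the 2 with the largest mean fall, among genes past the test in both sexes in the same direction, without overlap of the ages and with a mean of at least 1 CPM in a group. Some genes that this rule or a count would name are not reported here. Mice of 12 weeks were not analysed here.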

Additional observations from a re-analysis of the deposited data

Results flagged for a closer look

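Bmp4 per endothelial marker count stood out because every old female library lay below the young females, while every old male library lay above the young males. The change with age was -1.49 in log2 units in females and 0.69 in males, a difference of 2.18. Permuting the sexes within each age, a test added after these ratios were seen, gave p = 0.025 (two-sided exact permutation, 400 relabelings). Bmp4 was picked by these same ratios, so this p cannot decide whether the sexes differ. Bmp6 had a difference of 0.725, with p = 0.015 in the same exact permutation test, and its ratio was higher in the old of both sexes. That p cannot decide either, as the test was added after the ratios of Bmp6 were seen. Without the endothelial counts, the interaction of Bmp6 was 0.19 in log2 units (edgeR, SE 0.338, adjusted p = 0.847). Over 13300 genes the median of this difference was 0.57, 25% had an unadjusted p under 0.05, and 0 passed after adjustment over all of them (exact permutation, adjusted p = 0.171 for both genes). The old female libraries held 17 to 45 counts of Bmp4.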

How the results depend on the processing

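Direction and call held under every alternative run for Tgfb2, Tgfb3, Eng, Acvrl1, Bmp4, Bmp6, Id1 and Id3 with age in both sexes, and Tgfbr2 never passed. Leaving out 1 library gave 8 to 9 members lower in each sex and 0 members past the test between sexes or in the interaction. It gave 7434 to 8757 genes past the test with age in females, 6450 to 9564 in males, 5 to 11 between the young sexes, 5 to 830 between the old sexes (830 without old male replicate 3) and 0 to 750 in the interaction (750 without the same library). DESeq2 called 1 member between the old sexes and 1 in the interaction, Bmp4 in both, and the model of all 12 libraries called 1 between the old sexes. Over all genes, the count between the young sexes was 5, against 412 with DESeq2 and 8 in the model of all 12 libraries. Between the old sexes it was 6, against 357 with DESeq2, 10 with library totals only, 105 with no filter and 254 in the model of all 12 libraries. In the interaction it was 1, against 362 with DESeq2, 7 with no filter and 0 with the replicate block. The cause was not tested.

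Library totals without TMM shifted the median of all genes with age by -0.13 in log2 units in females and -0.12 in males, and moved the share of higher genes among those past the test from 50.6% to 40.2% in females. Same-numbered replicates did not deviate together, so the numbers were not taken as pairs. Of 12 correlations 1 was over 0.1, the range being -0.58 to 0.25. Taking each replicate of the first group of each comparison, 2 of 12 cases correlated best with their own number. With the replicate block 8 members were lower in each sex, as Tgfb1 no longer passed, and no other call of a member changed. Depth limits Tgfb2 and Bmp4 in the old libraries, at 9 to 89 counts.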

Other observations

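Levels are given for genes of surface anchors of latent TGF-beta. Lrrc32, whose product GARP is known on endothelium, platelets and regulatory T cells, had a mean of 90.6 ± 8.77 CPM in young and 5.72 ± 1.18 CPM in old females, and of 108 ± 11.7 and 3.50 ± 2.20 CPM in males (SD, n = 3 each). Nrros, whose product has this role on macrophages and microglia, had a mean of 135 ± 6.95 CPM in young and 118 ± 8.75 CPM in old females, and of 156 ± 9.98 and 109 ± 13.8 CPM in males (SD, n = 3 each). The log2 fold change of Nrros was -0.058 in females, which did not pass, and -0.40 in males, which did (edgeR, adjusted p = 0.569 and 0.0129). In the old libraries monocyte and macrophage markers had higher sums, in which Lyz2 rose in raw counts and Mrc1 did not. Endothelial and megakaryocyte markers had lower sums there. The part of these marker differences in the values was not tested.

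Among relatives of Id1 and Id3, Id2 had a mean of 67.8 ± 4.44 CPM in young and 62.9 ± 4.61 CPM in old females, and of 74.2 ± 8.72 and 72.9 ± 17.5 CPM in males (SD, n = 3 each), and did not pass with age (edgeR, adjusted p = 0.801 and 0.677). Id4 fell by 3.74 and 3.56 in log2 units (edgeR in females and males, SE 0.312 and 0.313, adjusted p = 2.98e-05 and 5.68e-05). Nrros, Id2 and Id4 were named after their values were seen.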
